A study of Mus musculus with 16 samples.

Results

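The 10 genes described here mark the visceral endoderm and the early definitive endoderm of the mouse embryo: Amn, Cubn, Lrp2, Dab2, Hnf4a, Apob, Afp, Cer1, Hhex and Sox17. They were taken by name from 3 stage tables of 24421 genes each, and all 10 were listed in every table. The study measured poly(A) RNA in mice without the microRNA family miR-302 (KO) and in wild type mice (WT), all C57BL/6, at 3 embryonic stages. At E7.5 whole embryos were used (2 KO libraries, 2 WT libraries). At E8.5 the libraries of both genotypes came from sorted Wnt1-Cre+ cells (4 KO, 3 WT), and at E9.5 from sorted Sox10+ cells (2 KO, 2 WT). The labels call the E7.5 material pluripotent embryonic cells and the sorted cells neural crest, the migratory cell population that leaves the dorsal neural tube. Wnt1-Cre marks cells that have ever switched on the Wnt1 driver, so at E8.5 the sort depends on that transgene. A further E8.5 KO sample, labelled KO4_5s, was not analysed here. The E8.5 WT1 library is titled WT1_5s, with the same suffix, which none of the analysed KO libraries carries and the labels do not explain; without it, 0 members were called at E8.5, as with it. The labels do not say that libraries of a group came from separate litters, so p-values measure only the spread between these libraries.

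Visceral endoderm is the extraembryonic epithelium that wraps the early embryo, takes up nutrients from its surroundings and secretes carriers of lipids and hormones before the liver does so. Amn and Cubn form the cubam receptor and work with the multiligand receptor Lrp2 (megalin), and Dab2 is the adaptor that draws these receptors into clathrin-coated pits. Hnf4a is a nuclear receptor of visceral endoderm, liver and gut, and Apob and Afp are secreted products of visceral endoderm and liver. Cer1, a secreted antagonist of Nodal, BMP and Wnt ligands, and the homeobox factor Hhex mark the anterior visceral endoderm and the first definitive endoderm, and Sox17 is a transcription factor needed for definitive endoderm. Visceral endoderm is not part of the neural crest.

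The deleted microRNAs are shown because the knockout removes them, and the target sequences because they show which of the 10 genes carry a match. The RefSeq mature sequences (build GRCm38.p6, chromosome 3, plus strand) are given with bases 2 to 8, the seed, in capitals.
miR-302b-3p: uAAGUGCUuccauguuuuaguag
miR-302c-3p: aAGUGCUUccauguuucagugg
miR-302d-3p: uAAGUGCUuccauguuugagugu
The 3 sequences share most of their first bases. The miR-302c entry begins 1 base later than the others, so its capitals are offset by 1 base. The longest annotated 3′ UTR of each gene (GENCODE M21, GRCm38) was searched, on the transcript strand only, for AGCACTTA or for either of its overlapping 7-base parts, AGCACTT and GCACTTA. At least 1 of these was present in 3 of the 10 genes, against 18.4% of 21173 genes with a 3′ UTR, and the full 8 bases were present in 3.03% of all these genes. The 4 matching stretches follow with the match in capitals.
Lrp2, chr2:69425163-69425190, minus strand: tttacatgtcAGCACTTAatcaataatc
Hnf4a, chr2:163571338-163571365, plus strand: actcacaggaAGCACTTgtcccccctgg
Hhex, chr19:37440213-37440240, plus strand: ctttagaggtGCACTTAggtgggggcaa
Hhex, chr19:37440322-37440349, plus strand: gccatttcagAGCACTTggctcccggtg
The other 7 genes held none of these strings in that window. A match is a string of letters and not a measured site.

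Between 4912827 and 14861728 reads per library were assigned to genes. In the values below, a normalised count is the authors' value, comparable within a stage, and RPM is reads per 1000000 reads assigned to genes. The precursors of the deleted family gave 0 and 0 reads in the E7.5 KO libraries, against 14 and 25 reads in the E7.5 WT libraries. At E8.5 they gave 0 reads in all 4 KO libraries and 1 read in 1 of the 3 WT libraries, and at E9.5 they gave 0 reads in both KO libraries and 1 read in 1 of the 2 WT libraries, so at these depths the genotype labels could be checked only at E7.5. Of the 4 E7.5 libraries, KO2 carries the code number 237 and KO1, WT1 and WT2 carry 239. At E8.5 KO1 and KO2 carry 128, KO3 157, KO4 and WT2 169, WT1_5s 163 and WT3 214. Among these analysed libraries only code number 169 holds both genotypes. At E9.5 both KO libraries carry 171 and both WT libraries 209, so code number and genotype cannot be told apart there. Nothing in the labels says what the code numbers stand for.

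At E7.5 all 10 genes were detected in every library of both genotypes, and Hhex and Lrp2 had the lowest mean level per length. None passed adjustment between KO and WT. Dab2, the endocytic adaptor, and Hnf4a were higher in both KO libraries than in both WT libraries. Afp and Apob split across genotypes, high in 1 KO and 1 WT library, and Cer1, Hhex and Sox17 were highest in a single KO library. With limma (adjusted p below 0.05), 0 of the 10 genes were called higher and 0 lower, against 0.0% of 12492 tested genes in either direction. No member reached an unadjusted p below 0.05 with limma or edgeR, and 385 of all tested genes did with limma. With DESeq2, Dab2 and Sox17 reached an unadjusted p below 0.05 and no member passed adjustment, against 0.272% of tested genes called. In whole-embryo RNA, fewer cells of a type and less RNA per cell cannot be told apart.

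**Figure D1:**
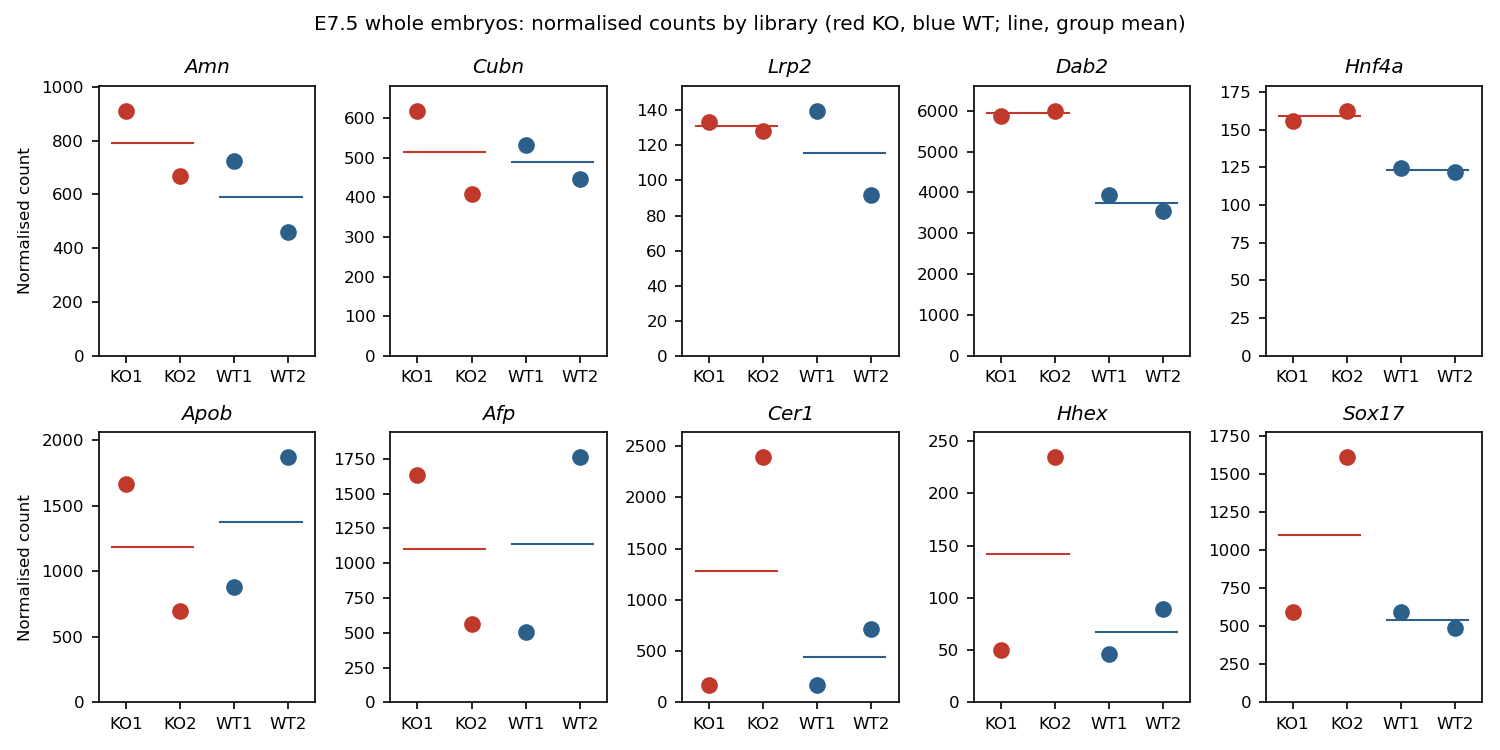
Normalised counts (linear axis from 0) of the 10 genes in the 2 KO (red) and 2 WT (blue) whole-embryo libraries at E7.5; each point is a library and each line a group mean. Dab2 and Hnf4a are separated by genotype, Apob and Afp are high in KO1 and WT2, and Cer1, Hhex and Sox17 stand out in KO2.

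The 4 endocytic genes summed to 1102 and 1020 RPM in KO embryos at E7.5, against 825 and 614 RPM in WT embryos, with no overlap, and Dab2 made up most of each sum. Dab2 had normalised counts of 5867 and 6003 in KO embryos, against 3928 and 3557 in WT embryos. Both KO values lay above both WT values, and the libraries within each genotype were close. The log2 fold change was 0.67 ± 0.29 (SE; n = 2 and 2), with an adjusted p of 1.0 by limma and an unadjusted p of 0.0529. Amn, the membrane anchor of cubam, had 911 and 669 in KO embryos and 723 and 459 in WT embryos. Its ranges overlapped, with a log2 fold change of 0.44 ± 0.34. Cubn, the ligand-binding part of the receptor, had 619 and 408 in KO embryos and 531 and 447 in WT embryos. Lrp2, the large receptor that shares ligands with Cubn, had 134 and 128 in KO embryos and 140 and 91.7 in WT embryos. Neither receptor separated the genotypes, with log2 fold changes of 0.04 ± 0.32 for Cubn and 0.21 ± 0.36 for Lrp2, and Cubn and Lrp2 each turned negative when 1 library was left out.

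Among the regulator and secreted products, Hnf4a had 156 and 163 in KO embryos, against 124 and 122 in WT embryos. The genotypes did not overlap, by a small margin, with a log2 fold change of 0.37 ± 0.32 and an adjusted p of 1.0 by limma. Dab2 and Hnf4a were the only members with both KO libraries above both WT libraries, 2 of 10, against 16.1% of tested genes, and 0 members had both KO libraries below both WT libraries, against 12.7% of tested genes. Afp, the fetal plasma protein, had 1632 and 565 in KO embryos and 507 and 1763 in WT embryos. Apob, the structural protein of the lipoproteins that visceral endoderm exports, had 1670 and 699 in KO embryos and 883 and 1872 in WT embryos. For both genes KO1 and WT2 were high and KO2 and WT1 low, so the difference inside each genotype exceeded that between genotypes. The log2 fold changes were 0.02 ± 0.66 for Afp and -0.25 ± 0.50 for Apob. Among all tested genes, 1.28% had KO1 and WT2 both at least 1.5-fold above KO2 and WT1.

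The split of Afp and Apob was partly shared by other carriers of visceral endoderm. Of 17 further visceral endoderm genes, 6 had KO1 and WT2 above KO2 and WT1 (Ttr, Apoa1, Apom, Apoe, Spink1 and Fgb), against 18.4% of tested genes, and only Fgb did so by 1.5-fold in each library. These 6 were picked out by their values. Ttr, the thyroxine carrier, had 1713 and 1367 in KO embryos and 856 and 2996 in WT embryos. By limma none of the 17 changed, and 10 had a positive log2 fold change, against 48.9% of tested genes, with a median of 0.02, beside -0.01 over all. Those with the smallest p were Soat2, a sterol esterifying enzyme (log2 fold change 0.44 ± 0.33), Fgg, a fibrinogen chain (-0.45 ± 0.35), the iron carrier Trf (0.36 ± 0.36) and the lipid transfer protein Mttp (0.23 ± 0.27). Of 19 partners of endocytosis and lysosomes, none changed and 13 had a positive log2 fold change, with a median of 0.21; Lamp1, a lysosomal membrane protein, had 0.45 ± 0.30 and the protease Lgmn 0.39 ± 0.27.

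Cer1, Hhex and Sox17 behaved differently from the other members in the KO2 library. Cer1 had 168 and 2393 in KO embryos, against 172 and 714 in WT embryos. Hhex had 50.1 and 235 in KO embryos and 46.4 and 89.2 in WT embryos. Sox17 had 590 and 1610 in KO embryos and 596 and 487 in WT embryos. In all 3 genes KO2 was the highest library, by at least 2-fold over every other one, while KO1 lay at or near the WT1 value. Such a lead of KO2, a pattern picked out by these values, was found in 0.889% of tested genes. The log2 fold changes were 0.86 ± 1.15 for Cer1, 0.75 ± 0.71 for Hhex and 0.85 ± 0.46 for Sox17. Without KO2 they were -1.05, -0.36 and 0.13. Without KO1 Cer1 had a log2 fold change of 2.77 and passed the limma threshold (adjusted p = 0.00508), so its value rests on which KO library is kept. Leaving out KO2 is also the comparison within code number 239.

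Other genes of the anterior visceral endoderm and organizer were also high in KO2, although this was not general. KO2 led by at least 2-fold for 3 of 12 tested genes (Lhx1, Gsc and Shisa2), and in the list of definitive and gut endoderm for 2 of 12 (Cxcr4 and Pyy). The same lead was found for 2 of 8 tested neural crest markers and 2 of 11 tested trophoblast markers, so it was not particular to endoderm. It was found for 0 of 17 further visceral endoderm genes and 0 of 12 parietal endoderm genes. Lhx1, a LIM homeobox factor of the anterior endoderm and node, had 117 and 720 in KO embryos, against 183 and 148 in WT embryos. Dkk1, a Wnt antagonist of the anterior visceral endoderm, had 209 and 536 in KO embryos and 248 and 575 in WT embryos, so KO2 and WT2 were both high, and Sfrp5 had 135 and 141 in KO embryos and 994 and 133 in WT embryos. None of the 12 genes of the anterior list changed by limma, with a median log2 fold change of 0.28, and of 12 tested definitive and gut endoderm genes none changed, with a median of 0.08. Of 10 tested endoderm transcription factors none passed adjustment, and 9 had a positive log2 fold change, against 48.9% of tested genes, with a median of 0.60. Foxa1, a pioneer factor of endoderm, had 89.1 and 112 in KO embryos, against 14.1 and 52.8 in WT embryos, with a log2 fold change of 1.83 ± 0.63 and an adjusted p of 1.0 by limma. Gata6, a factor of primitive endoderm, had 306 and 727 in KO embryos and 230 and 204 in WT embryos, with a log2 fold change of 1.12 ± 0.43.

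Over the 10 members the median log2 fold change was 0.40 by limma, beside a median of -0.01 over all tested genes. By limma 9 members were positive, against 48.9% of tested genes, and 8 were with edgeR or DESeq2. Among the 9, Afp and Cubn lay near 0 (0.02 and 0.04). Markers of tissues around the embryo differed between the same libraries. The summed normalised count of 14 trophoblast markers was 31720 and 56031 in KO embryos, against 12838 and 8481 in WT embryos, and 1 or 2 of them were at 0 in each library. Prl3d1, a hormone of trophoblast giant cells, led that list with 24271 and 44351 in KO embryos, against 7965 and 4380 in WT embryos. Its log2 fold change was 2.47 ± 0.45, with an adjusted p of 0.850 by limma. Prl3d1 made up most of each of these sums. Of 11 tested trophoblast markers, 8 had a positive log2 fold change, while Elf5 (-0.46 ± 0.45), Cdx2 (-0.59 ± 0.43) and Ascl2 (-0.20 ± 0.30) had a negative one. Markers of uterine gland and decidua, 14 genes, summed to 6830 and 7215 in KO embryos, against 16069 and 18104 in WT embryos, with 1 marker at 0 in KO1 and none in the other libraries. The sums were made of different genes: Prl8a2, a hormone of decidua, had 5952 and 5925 in KO embryos and 6897 and 294 in WT embryos, Des had 394 and 720 in KO embryos and 6296 and 239 in WT embryos, and Clu had 93.2 and 110 in KO embryos and 661 and 7498 in WT embryos. Prl8a2 thus made up most of both KO sums, Prl8a2 and Des most of WT1, and Clu and the gland protease Prss29, with 6.96 and 2.40 in KO embryos and 139 and 6058 in WT embryos, most of WT2. The 12 parietal endoderm genes summed to 18740 and 28007 in KO embryos and 21956 and 13149 in WT embryos. KO2 was the highest library for 10 of them, against 22.1% of tested genes. It was also the highest for 8 of 11 tested trophoblast markers and for 0 of 13 tested markers of uterine gland and decidua. The part of these tissues in the values of the 10 members was not tested.

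**Figure D2:**
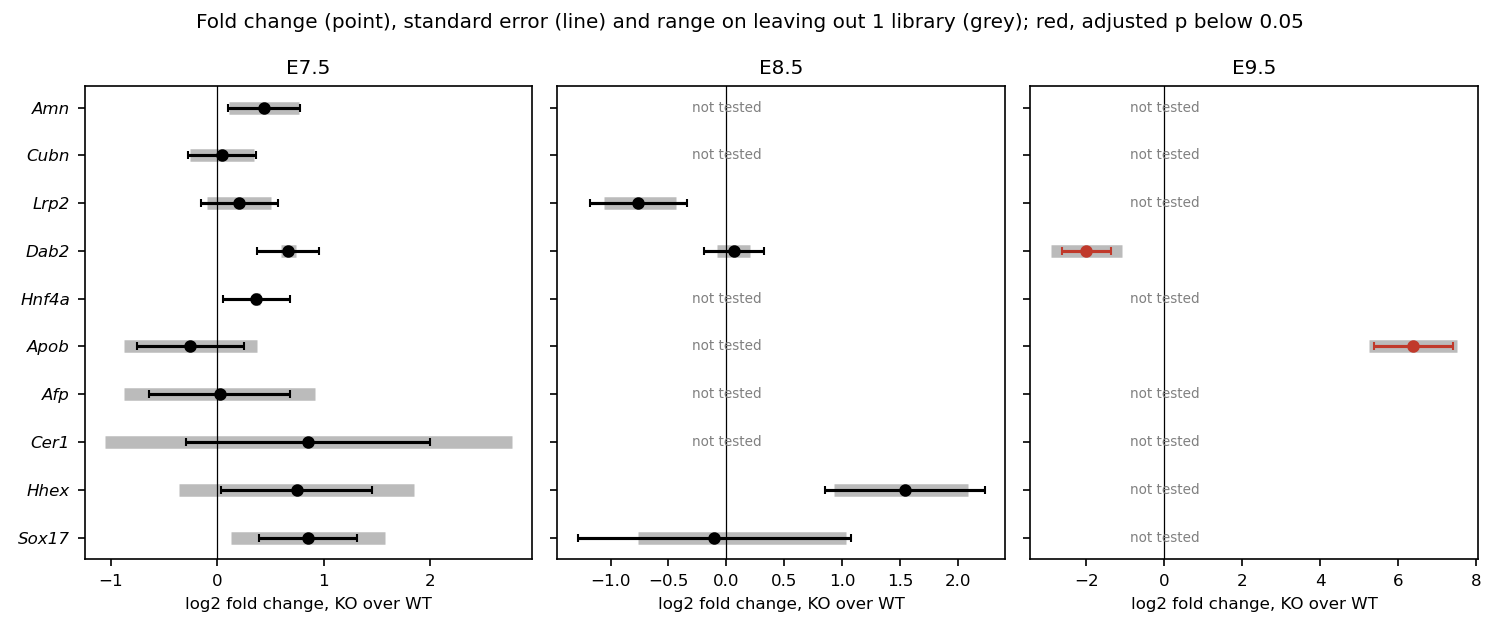
Log2 fold change (KO over WT, on the log2(normalised count + 1) scale) of each tested member by stage, with its standard error (line) and the range over fits that leave out 1 library (grey band); red points have an adjusted p below 0.05 by limma. At E7.5 the bands of Cer1, Hhex, Afp, Apob, Cubn and Lrp2 cross 0; at E9.5 Apob lies at 6.38 and Dab2 at -2.0.

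Compared per length at E7.5, as RPM divided by the kilobases of annotated exon (RPKM), the mean over KO embryos was 116 for Dab2, 104 for Cer1, 61.9 for Amn, 47.3 for Afp and 32.9 for Sox17. The others had 12.3 for Apob, 4.97 for Cubn, 4.75 for Hnf4a, 4.01 for Hhex and 1.13 for Lrp2. In WT embryos the mean RPKM was 74.1 for Dab2, 35.3 for Cer1, 47.2 for Amn, 46.9 for Afp, 16.6 for Sox17, 14.0 for Apob, 4.78 for Cubn, 3.70 for Hnf4a, 1.90 for Hhex and 1.02 for Lrp2. In the KO order, neighbours overlapped in their library values except between Sox17 and Apob, between Apob and Cubn, and between Hhex and Lrp2. Amn and Cubn, partners in a single receptor, thus stood far apart per length in both genotypes.

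At E8.5, in sorted Wnt1-Cre+ cells, most of this program was near the limit of detection. Only Lrp2, Dab2, Hhex and Sox17 averaged at least 10 normalised counts and were tested, and by limma 0 of these 4 were called higher and 0 lower, against 0.0% of 12257 tested genes in either direction. None of the 4 had all KO libraries above or below all WT libraries, against 3.71% of tested genes above and 2.82% below. DESeq2 called 0 of the 4, against 0.261% of tested genes. The median log2 fold change of the 4 was -0.02, beside -0.03 over all tested genes.

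Hhex had the smallest p among the 4 members tested at E8.5. It had normalised counts of 47.0, 27.1, 179 and 26.7 in KO1 to KO4, against 36.6, 12.3 and 9.78 in the WT libraries. KO3 stood far above all others, and the remaining KO values overlapped those of WT. The log2 fold change was 1.54 ± 0.69 with an unadjusted p of 0.0492 and an adjusted p of 0.815 by limma, and without KO3 it was 0.93. In the authors' deposited table Hhex was among the genes higher in KO, with a log2 fold change of 1.86, an unadjusted p of 0.00976 and an adjusted p of 0.461.

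KO3 was also the highest library for 3 of the 6 members below the minimum mean of 10 (Hnf4a, Afp and Cer1). It gave 15 reads of Afp, against 0 reads in the other KO libraries and 0, 1 and 0 reads in the WT libraries. It gave 7 reads of Cer1 and 4 of Hnf4a, while Apob had at most 4.64 normalised counts in the KO libraries (KO4; 4.21 in KO3) and at most 4.89 in the WT libraries. These 3 genes each lay at least 2-fold higher in KO3 than in every other library, a lead that few reads can give and that 7.77% of the 6010 detected genes below the minimum also showed. Among the 4 tested members it was shown by Hhex, and by 0.392% of all tested genes. Of 16 detected visceral endoderm genes outside the members, tested or not, 6 showed it. These genes were picked out by their values. Ttr had 3.13, 2.08, 73.4 and 9.27 in KO1 to KO4, against 6.77, 8.60 and 0 in WT. Gata4, an endoderm and heart factor, had 4.70, 1.04, 54.7 and 0 in KO1 to KO4, against 4.07, 1.23 and 0 in WT. KO3 is the single library with code number 157, as WT1_5s and WT3 are with 163 and 214 among the libraries analysed. Across 11826 genes, the Spearman coefficient between exon length and deviation from the stage mean was highest in WT3 (0.442) and KO3 (0.429). Values for the remaining libraries were 0.0411 (KO1), -0.00121 (KO2), -0.380 (KO4), -0.361 (WT2) and -0.401 (WT1_5s). Whether this length trend has a part in the lead of KO3 was not tested. The summed endothelial markers, 8 genes added after the values were seen, were 420, 163, 305 and 60.3 in KO1 to KO4, against 157, 109 and 115 in WT. Hhex and Sox17 are also expressed in early endothelium, and the part of endothelial cells in their values was not tested.

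Sox17 had 32.9, 8.33, 40.9 and 0 in KO1 to KO4, against 28.5, 4.91 and 7.82 in WT. The groups overlapped widely, with a log2 fold change of -0.11 ± 1.18, and the library at 0 decides its sign, since it was 1.04 without KO4. Lrp2, which the neural tube also expresses, had 63.5, 57.3, 110 and 29.0 in KO1 to KO4, against 88.1, 87.2 and 129 in WT. KO3 overlapped WT and the other KO values lay below, with a log2 fold change of -0.76 ± 0.42 and an adjusted p of 0.849 by limma. Dab2 had 225, 160, 260 and 145 in KO1 to KO4, against 171, 183 and 197 in WT, with a log2 fold change of 0.07 ± 0.26. Amn gave 2.41 to 6.25 normalised counts in the KO libraries and 7.37 to 9.78 in the WT libraries. These were 20 reads over the 4 KO libraries and 22 over the 3 WT libraries, too few to be tested. Each KO library lay below each WT library, as for 2.82% of tested genes. The share among genes below the minimum mean was not counted. Of the 8 further visceral endoderm genes tested at E8.5, none changed; the leading one, Apoe, had a log2 fold change of -0.73 ± 0.30 and an adjusted p of 0.807 by limma.

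At E9.5, in sorted Sox10+ cells, Apob was far higher and Dab2 lower in KO, and these were the only 2 members abundant enough to be tested. Apob was called higher, 1 of 2 tested members, against 24.5% of 12000 tested genes, and Dab2 was called lower, 1 of 2, against 23.0%. Apob met the minimum mean only through KO, so it could be tested only if it was higher in KO. Its count is no support for a rise of the members. With no minimum mean, 3 of 9 detected members (Apob, Hhex and Hnf4a) were called higher and 0 lower, against 15.6% and 13.5% of 17137 genes. Hhex and Hnf4a had 0 reads in WT, so they were detected only through KO and could only come out higher. This count is no support either. Apob had both KO libraries above both WT libraries, as had 38.6% of tested genes, and Dab2 had both below, as had 41.7%. The libraries also differed by transcript length: the Spearman coefficient between exon length and deviation from the stage mean was -0.447 and -0.531 in KO, against 0.551 and 0.605 in WT, across 11578 genes. The median log2 fold change of all tested genes was -0.14, and 0.01 with DESeq2.

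Apob had normalised counts of 80.2 and 389 in KO cells, against 2.03 and 0.505 in WT cells, or 305 reads in KO and 3 in WT. Both KO libraries were high, KO2 the more so, and WT was at the limit of detection, so Apob met the minimum mean only through KO. The log2 fold change was 6.38 ± 1.01 on the log2(value + 1) scale (adjusted p = 0.00647 by limma), and the RPM ratio was 108, with an exact 95% counting interval of 36.5 to 524. It was called with every alternative tried, with a log2 fold change from 4.34 at a pseudocount of 8 to 7.92 with the length trend removed. In the authors' deposited table it was also higher in KO, with a log2 fold change of 7.74 and an adjusted p of 6.75e-10.

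Other secreted carriers were higher together with Apob. Of 12 tested visceral endoderm genes outside the members, 10 rose and none fell, against the 24.5% and 23.0% of tested genes above. Of these 12, 8 had a WT mean below 10 and met the minimum only through KO, so they could be tested only if they were higher in KO and their count is no support for a rise of the list. With no minimum mean, 11 of 16 detected genes of the list rose and none fell, against 15.6% and 13.5% of 17137 genes. Of the 11, Apoa4 and Slc2a2 had 0 reads in WT, so they could only come out higher. With 1 library left out, 10 of 11 rose without KO1, the library with high erythroid markers, 10 of 11 rose and 1 fell without KO2, and 9 of 13 rose without WT1 or without WT2. Ttr had 290 and 816 in KO cells, against 0 and 2.52 in WT cells. Apoa2, a high-density lipoprotein component, had 1030 and 2332 in KO cells, against 9.11 and 14.1 in WT cells, with a log2 fold change of 6.97 ± 0.51. Apoe had 631 and 1149 in KO cells and 69.9 and 84.3 in WT cells, and Fgb had 170 and 413 in KO cells and 2.03 and 2.02 in WT cells. The 2 that did not pass were Rhox5, with a log2 fold change of 2.87 ± 1.40, and Mttp, which loads lipid on Apob, with -0.87 ± 0.59. Mttp had 20.1 and 40.8 in KO cells and 48.6 and 58.0 in WT cells.

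Afp, which shares Apob's sources, did not follow it, with 1 read in KO and 1 in WT. Hnf4a gave 7 and 4 reads in the KO libraries and none in WT, an RPM 3.88-fold that of 3 reads over the WT group. Hhex gave 5 and 2 reads in KO and none in WT, 2.47-fold on the same floor. These ratios leave out the counting error of the KO reads. For both genes each KO library was above each WT library, as for 38.6% of tested genes, though both were below the minimum mean. Cer1 had 0 reads in both genotypes, and Sox17 had 0 reads in KO and 2 in WT, so no difference could be detected at this depth. Of 12 endoderm factors, Foxa2, a factor of endoderm and floor plate, was the only one that met the minimum mean, and it did so only through KO. It had 19.0 and 211 in KO cells, against 3.04 and 0 in WT cells, with a log2 fold change of 5.02 ± 1.45 (adjusted p = 0.0382 by limma). By limma it did not pass with no minimum mean (adjusted p = 0.0860) or at pseudocounts of 0.1 (0.0587) and 8 (0.0510). Nor did it pass by limma with the length trend removed (adjusted p = 0.0919). It passed with TMM or quantile scaling, edgeR, DESeq2 and the replicate block. The log2 fold change of Foxa2 was 6.72 without KO1, 6.02 without WT1 and 4.01 without WT2.

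Markers of hepatocytes moved with Apob. A list of 9 plasma proteins and enzymes of hepatocytes, added after the values were seen, summed to 2289 and 5476 in KO cells, against 21.3 and 31.3 in WT cells, and all 9 rose, against 24.5% of tested genes. Of the 9, 7 had a WT mean below 10 and met the minimum only through KO, so the count is no support. With no minimum mean 8 of the 9 rose, against 15.6% of genes. Of these, Ambp and F2 had 0 reads in WT, so they could only come out higher. With either WT library left out, 5 of the 9 rose, and with KO1 left out all 9 did. None of the 9 was at 0 in either KO library, while 4 were at 0 in WT1 and 3 in WT2. Albumin (Alb) had 1589 and 3562 in KO cells, against 4.05 and 17.2 in WT cells. Erythroid markers, 10 genes, summed to 274041 and 301 in KO cells and 10.1 and 22.7 in WT cells, so KO1 held most of that signal while Apob was higher in KO2. The neural crest list, 12 genes, summed to 2471 and 3749 in KO cells, against 5461 and 5271 in WT cells; 4 of the 12 fell (Sox9, Ets1, Ednrb and Erbb3), against 23.0% of tested genes, and Sox10, on which the cells were sorted, had 511 and 1165 in KO cells and 722 and 639 in WT cells. The part of hepatocytes and blood cells in the Apob value was not tested.

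**Figure D3:**
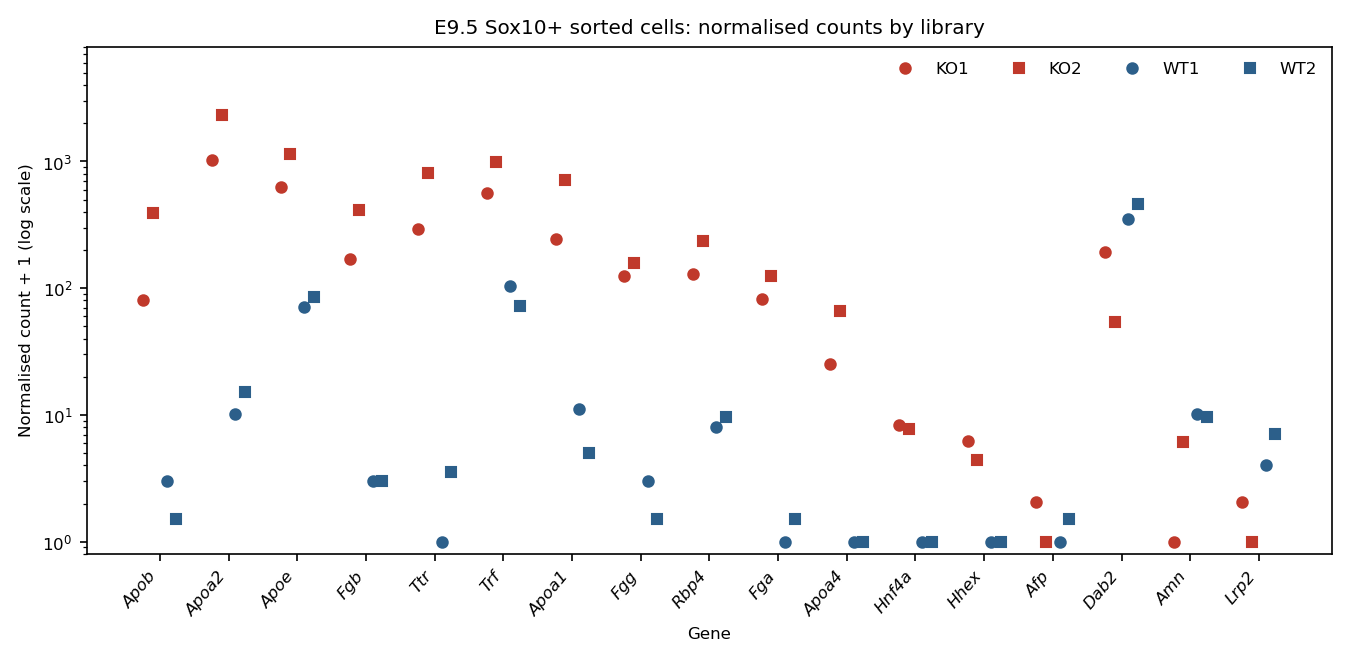
Normalised count + 1 (log axis) in the 2 KO (red) and 2 WT (blue) Sox10+ libraries at E9.5 for Apob, the 10 other visceral endoderm genes that rose, and 6 further members; circles are replicate 1 and squares replicate 2. Apob and the 10 genes lie higher in both KO libraries, Hnf4a and Hhex have a few counts in KO and none in WT, and Dab2 lies lower in KO.

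Dab2 had normalised counts of 191 and 52.7 in KO cells, against 353 and 464 in WT cells. Both KO libraries were below both WT libraries, and KO2 was the lowest. The log2 fold change was -2.0 ± 0.63 (adjusted p = 0.0487 by limma), close to the threshold. Adjusted p was 0.0729 with edgeR, 0.0149 with DESeq2, 0.132 by limma without WT1 and 0.172 by limma without WT2, and without KO2 the log2 fold change was -1.08 (adjusted p = 0.0261 by limma). With each library's trend over exon length removed, the log2 fold change of Dab2, a transcript of 7342 annotated exon bases, was -0.95 (adjusted p = 0.201 by limma). In the authors' deposited table Dab2 was lower in KO, with a log2 fold change of -1.73 and an adjusted p of 0.0144.

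The receptors served by Dab2 gave few reads at E9.5, and Amn and Lrp2 gave fewer in KO. Amn gave 0 and 3 reads in KO cells, against 9 and 17 in WT cells, an RPM ratio of 0.122 with an exact 95% counting interval of 0.0236 to 0.398. Lrp2 gave 1 and 0 reads in KO cells and 3 and 12 in WT cells, a ratio of 0.0705 with an interval of 0.00168 to 0.458. For both, each KO library was below each WT library, as was the case for 24.7% of the 5137 detected genes below the minimum mean and 41.7% of tested genes. Cubn gave 1 and 0 reads in KO cells and 0 and 3 in WT cells, a ratio of 0.353 with an interval of 0.00672 to 4.39, so no difference was detectable for Cubn at this depth. These intervals cover counting error only, and none of the 3 genes was abundant enough for the test across libraries. Of 18 tested partners of endocytosis and lysosomes, 5 rose and 4 fell, shares near the 24.5% and 23.0% of all tested genes, with a median log2 fold change of 0.27, beside -0.14 over all tested genes. Gipc1, an adaptor of the megalin tail, rose (1.97 ± 0.20, adjusted p = 0.00192 by limma), and Clcn5, the endosomal chloride-proton exchanger, fell by 3.23 ± 0.65 (adjusted p = 0.0132 by limma). Of 11 tested parietal endoderm genes, which include basement membrane laminins, 6 fell and 1 rose, against 23.0% and 24.5% of tested genes. With no minimum mean 3 of 12 fell and none rose, against 13.5% and 15.6% of 17137 genes. Nid1 had 54.9 and 25.5 in KO cells, against 619 and 816 in WT cells. The part of the length trend in these values was not tested for this list. The 8 endothelial markers summed to 96.1 and 10.2 in KO cells and 54.7 and 50.5 in WT cells, and their part in the Dab2 value was not tested.

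**Figure D4:**
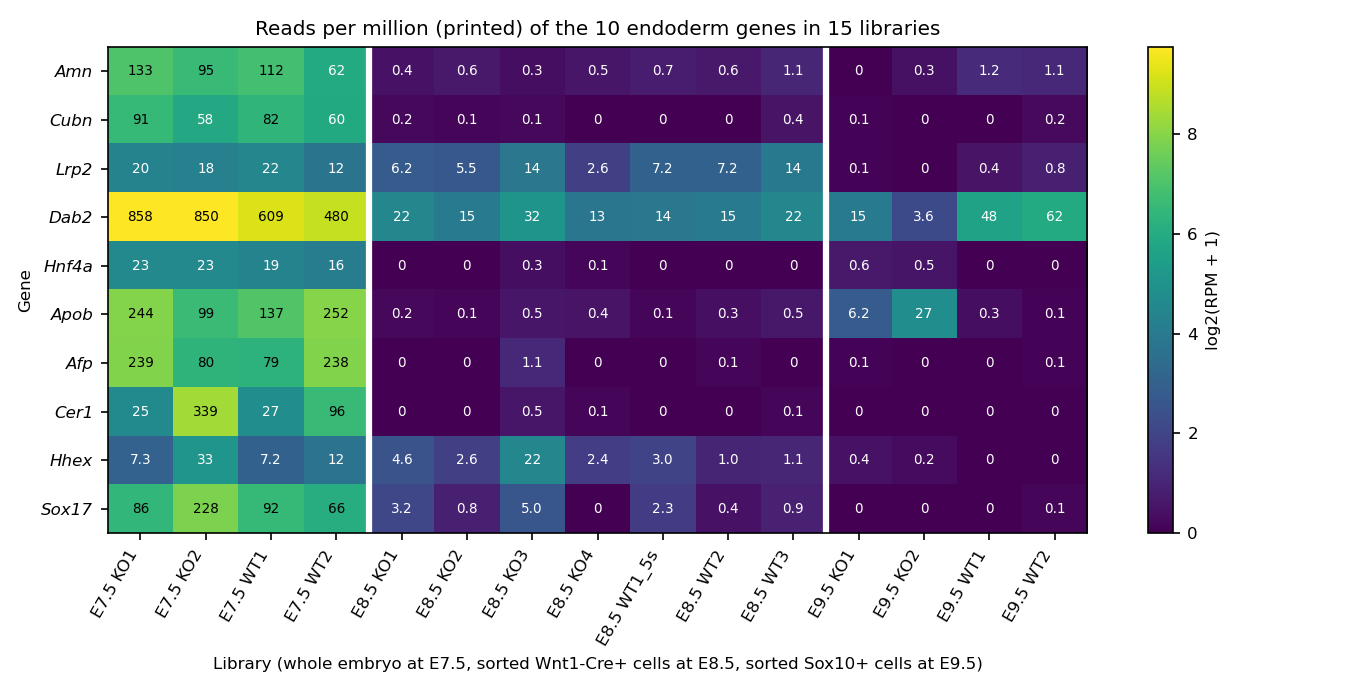
RPM of the 10 genes in each of 15 libraries (printed numbers; colour, log2(RPM + 1)), with KO left of WT within each stage. All 10 genes are detected in every E7.5 library; at E8.5 and E9.5 most are near 0, and Apob reaches 6.15 and 26.6 RPM in the KO libraries at E9.5.

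Across the stages the mean RPM of every member was higher in the whole embryos of each genotype than in the sorted cells of that genotype. The tissue and the sort change with the stage and the tables were normalised separately, so the levels are given as RPM and were not tested. The 10 genes together made up 1726 and 1822 RPM in KO embryos at E7.5, against 1185 and 1295 RPM in WT embryos. At E8.5 they summed to 36.6, 24.9, 75.5 and 19.2 RPM in KO1 to KO4, against 27.3, 24.7 and 40.1 RPM in WT. At E9.5 the sum was 22.0 and 31.3 RPM in KO, against 49.7 and 64.3 RPM in WT. Dab2 made up most of the WT sum at E9.5, with 47.8 and 61.8 RPM, while in KO it gave 14.7 and 3.60 RPM and Apob gave 6.15 and 26.6 RPM. Lrp2 averaged 18.8 RPM in KO and 17.0 RPM in WT at E7.5, and 6.95 RPM in KO and 9.56 RPM in WT at E8.5. Its receptor partner Amn averaged 114 RPM in KO and 86.9 RPM in WT at E7.5, and 0.449 RPM in KO and 0.785 RPM in WT at E8.5. Afp was at 0 reads in 5 of the 7 E8.5 libraries and in 2 of the 4 E9.5 libraries. In those libraries 0 allows up to 0.229 to 0.333 RPM at E8.5, and up to 0.349 RPM in KO2 and 0.411 RPM in WT1 at E9.5.

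The genes most like the members over all 15 libraries were found by the root mean square difference of centred log2 values, compared over 12482 genes. Nearest to the median of the 7 visceral endoderm members were Scin (0.34), Pla2g12b (0.36), 4933402E13Rik (0.36), Mageb16 (0.36) and Tdh (0.37). All of these had under 8 normalised counts on average at E8.5 and none at E9.5. Among the members themselves Cubn lay nearest to that median (0.22) and Lrp2 farthest (1.94). Nearest to the median of Cer1, Hhex and Sox17 were Gata6 (0.45), Sox7 (0.48), Upp1 (0.55), Cfc1 (0.56) and Lhx1 (0.61). Of the 3 members Sox17 lay nearest to it (0.52) and Hhex farthest (1.37).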

How the data were processed

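Poly(A) RNA was read in 15 libraries of 16 samples, made with SMART-Seq v4 and Nextera XT kits, per the labels' protocols. Per the submitters' processing notes, FastQC 0.11.5 and STAR 2.7.0f were used, with build mm10; no source used here names the read counter or the annotation. The deposited stage tables hold normalised signal, which are gene counts divided by 1 factor per library. Within 0.01 of a read, 100% of values came out as whole reads, which gave each depth. A count of 0 allows 3 reads. The authors' deposited lists give a mean normalised signal, a log2 fold change, a test score and p-values, and were used for comparison only.

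Groups were read from the sample titles. Each stage was tested alone with limma 3.58.1 (R 4.3.3) on log2(value + 1) for genes averaging at least 10, KO against WT, two-sided, with Benjamini-Hochberg adjustment over all tested genes at 0.05. EdgeR 4.0.16 and DESeq2 1.42.0 ran on the recovered reads as alternatives, beside other pseudocounts, filters and scalings, a replicate block, leaving out libraries and, added after the values were seen, removal of a loess trend over exon length (span 0.3). The method was tested on simulated counts. Intervals cover counting error only. The members and gene lists were chosen with earlier results of these data known. Besides the members, the rule named up to 4 genes of smallest p in each list and 5 likest genes; other names were chosen after their values were seen.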

Additional observations from a re-analysis of the deposited data

Results flagged for a closer look

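Among the 10 members' values in the 4 E8.5 KO libraries, 2 of 10 genes had a library far from the other 3. For Afp this was KO3, with 9.02 normalised counts (15 reads), where the other 3 KO libraries had 0; with 3 values tied at 0 any count in the fourth is set apart, so no chance rate applies. For Hhex it was again KO3, with 179 normalised counts, where the other 3 had 47.0, 27.1 and 26.7; chance alone gives such a gap in about 1 in 20 groups.

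For Dab2 the direction of the KO to WT difference was opposite in 2 stages. Both KO libraries were above both WT libraries at E7.5 and below both at E9.5. The log2 fold change at E9.5 minus that at E7.5 was -2.67. This difference was not tested, and the stages differ in tissue and were normalised separately.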

How the results depend on the processing

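With one library left out at a time, the number of members called ran from 0 to 1 at E7.5 (Cer1 without KO1), was 0 at E8.5 and ran from 1 to 2 at E9.5, where Dab2 was lost without WT1 or WT2. The median log2 fold change of the tested members ran from 0.31 to 0.47 at E7.5, from -0.42 to 0.62 at E8.5 and from 2.04 to 2.35 at E9.5, where it averages 2 genes of opposite direction (2.19). Over the same fits the log2 fold change of members that changed sign ran from -0.26 to 0.34 for Cubn, -0.10 to 0.51 for Lrp2, -0.88 to 0.38 for Apob, -0.88 to 0.92 for Afp, -1.05 to 2.77 for Cer1 and -0.36 to 1.85 for Hhex at E7.5, and from -0.077 to 0.20 for Dab2 and -0.76 to 1.04 for Sox17 at E8.5. Where an arm was left with 1 library, limma took its spread from the other group. At E7.5 Cubn had -0.023 with quantile normalisation, and Afp had -0.031 with edgeR and -0.067 with DESeq2. At E8.5 Sox17 had 0.21 at a pseudocount of 8, 0.68 with edgeR and 0.60 with DESeq2. Within code number 169, KO4 against WT2, the E8.5 median was -0.95, with no test. At E9.5 the members called fell to 1, Apob alone, at a pseudocount of 0.1, with TMM or quantile scaling, with edgeR and with the length trend removed. With no minimum mean it was 1 of the same 2, Apob. Hhex and Hnf4a, then tested as well, were called higher (adjusted p = 0.0313 and 0.0209 by limma), against 15.6% of 17137 genes. Both had 0 reads in WT, so they could be tested only if they were higher in KO. The E9.5 median was 2.64 and 1.22 at pseudocounts of 0.1 and 8, 2.56 with quantile scaling, 2.95 with edgeR, 3.04 with DESeq2 and 3.48 with the length trend removed. The cause of these changes was not tested. Replicate numbers shared between genotypes did not pair the libraries: the correlation of same-numbered deviations was -0.117 at E7.5, 0.0759, -0.0248 and 0.554 at E8.5 and -0.171 at E9.5, and not every library correlated best with its own number. With the replicate block, 0, 0 and 2 members were called at E7.5, E8.5 and E9.5, as without it, and the E8.5 fit with the block also left out KO4, which has no numbered partner: Sox17 had 1.04 in it, as in the fit without KO4 and without the block. Depth limits the sorted stages, where members with fewer than 10 normalised counts on average were not tested.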

Other observations

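The authors' deposited list of genes higher in KO at E7.5 also names a member. Lrp2 stands there with a log2 fold change of 2.47, an unadjusted p of 0.0211, an adjusted p of 0.114 and a mean of 11.2 normalised counts, while its mean in the E7.5 stage table was 123. Of 3365 genes of that list found in the stage table, 44 (1.31%) had a mean within 5% of the table's, while in the authors' deposited lists for E8.5 and E9.5 all genes did (100%). In the E7.5 stage table Lrp2 had 134 and 128 normalised counts in KO embryos, against 140 and 91.7 in WT embryos.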
